A study of Mus musculus with 3 samples.

Results

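The comparison described here was between MC3T3-E1 cells given titanium (Ti) particles together with selenomethionine (Se-Met), named Ti+Se-Met, and the same cells given Ti particles alone, named Ti. Its members were the genes that reached 1 FPKM in either library, which were 10883 of the 15287 genes in the table. FPKM is the number of sequenced fragments per kilobase of transcript, scaled to the number of fragments in the library. MC3T3-E1 is a line of preosteoblasts from mouse calvaria, and 1 RNA-seq library was made for each condition. The Ti cells were given particles at 10 μg/cm2 for 24 h, and the Ti+Se-Met cells the same particles with Se-Met at 5 μM for 24 h. The CTL cells had neither agent. Their FPKM is given beside the other 2 as a reference, and any difference from CTL shares that library. The labels do not say how many cultures stood behind a library. With 1 library per condition, the differences below carry no error between replicates and no p-value.

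Se-Met is methionine with selenium in the place of sulfur. Cells can put it into protein in the place of methionine, or break it down and use its selenium to make selenocysteine, the residue at the active site of glutathione peroxidases and thioredoxin reductases. Ti particles that wear off implants are known for inflammation and loss of bone around the implant, and osteoblasts are the cells that lay down the collagen matrix of bone. The study added Se-Met to ask whether it opposes the response of these cells to the particles.

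The 2 libraries were close to each other. The difference in log2(FPKM + 1), Ti+Se-Met minus Ti, had a median of -0.06 over the 10883 genes, and the middle 50% of genes lay between -0.21 and 0.08. At 2-fold, 18 genes were higher in Ti+Se-Met (0.165%) and 7 lower (0.0643%). At a ratio of at least 5 to 4 between the values of FPKM + 1, 594 genes were higher (5.46%) and 1342 lower (12.3%), but this split depended on the scaling between libraries: it was 711 to 1078 with equal FPKM sums, 874 to 858 with the median of ratios and 881 to 848 with the upper quartile. Lists of genes are therefore described against the median of all genes, which 50% of genes exceed. The spacing of low FPKM values in short genes placed the depth at about 15150000 fragments for Ti and 10700000 for Ti+Se-Met. These depths gave each fold a 95% exact interval for counting error, which covers no difference between cultures. The interval takes the deposited scaling between libraries as given and would move with another. In bulk RNA, fewer cells of a type and less RNA per cell cannot be told apart. Over the 10643 genes with a known length, this interval lay above equal levels for 1714 (16.1%) and below for 3184 (29.9%). The osteoblast identity held in part, since 6 of 8 osteoblast markers reached 1 FPKM in the 2 libraries and Sp7 and Alpl did not. Of 8 macrophage markers, 3 had values and only Lyz2 reached 1 FPKM (14.76 in Ti against 12.42 in Ti+Se-Met), and of 6 osteoclast markers 4 had values and only Ctsk did (29.68 and 26.22). No endothelial, adipocyte, chondrocyte or muscle marker with a value reached 1 FPKM in either, and the other markers were not analysed here.

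**Figure D1:**
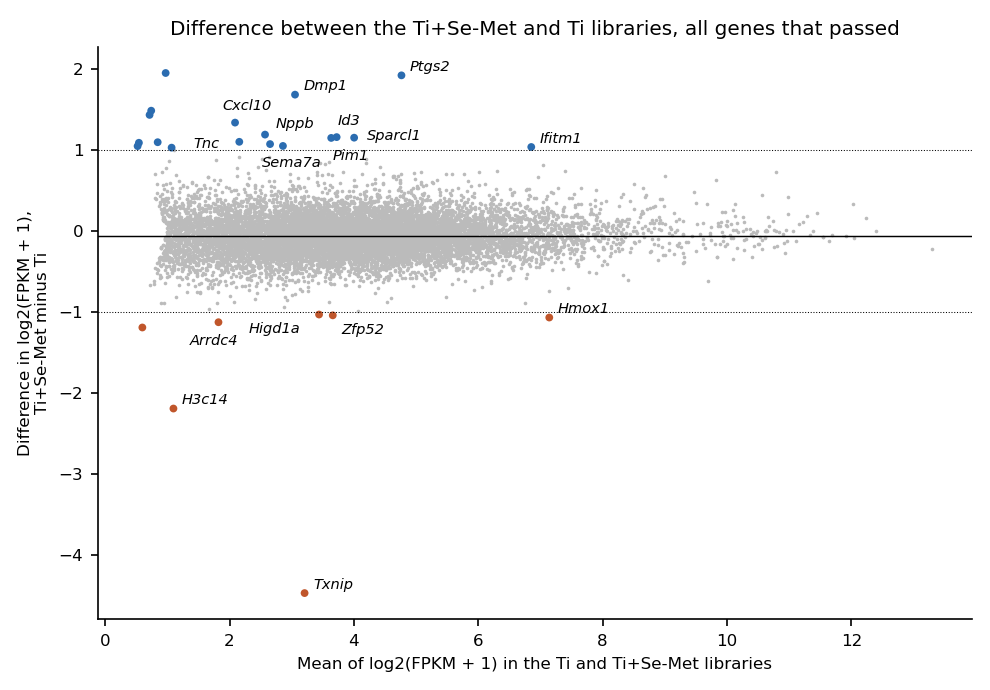
Each point is 1 of the 10883 genes, with the mean log2(FPKM + 1) of the Ti and Ti+Se-Met libraries on the x axis and the difference, Ti+Se-Met minus Ti, on the y axis. The solid line is the median of all genes (-0.06), the dotted lines mark 2-fold, and colour marks the 18 genes higher (blue) and the 7 lower (orange) by 2-fold, with Txnip alone below -4.

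The gene with the largest difference was Txnip, which encodes a protein that binds and inhibits thioredoxin and lowers glucose uptake. Txnip had 19.56 FPKM (CTL), 42.51 (Ti) and 0.96 (Ti+Se-Met). The Ti+Se-Met library was thus below both others, at 0.0226 times the Ti level (counting interval 0.0148 to 0.0329), on about 1698 fragments in Ti and 27 in Ti+Se-Met. Arrdc4, a related arrestin-domain gene that is also known to restrict glucose uptake, had 1.77 FPKM (CTL), 4.23 (Ti) and 1.39 (Ti+Se-Met), a fold of 0.329 (0.222 to 0.48). Both are known targets of the MondoA and ChREBP transcription factors, which bind E boxes with their partner Mlx. The other arrestin-domain genes and the regulators differed less. Arrdc1, Arrdc2 and Arrdc3 had differences of -0.24, -0.12 and -0.05, and Mlxip, which encodes MondoA, and Mlx had -0.10 and -0.02, all with intervals that included equal levels. Slc2a1, the glucose transporter that Txnip protein is known to remove from the cell surface, was higher, at 36.46 FPKM in Ti against 52.24 in Ti+Se-Met, a fold of 1.43 (1.34 to 1.53).

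The 250 bases before the start of Txnip (chr3:96557707-96557956, plus strand) and of Arrdc4 (chr7:68749239-68749488, minus strand) are shown because these were the 2 related genes past 2-fold. The sequences are from RefSeq on GRCm38.p6, which is not the build of the deposited values, and run 5′ to 3′ on the strand of the gene. Capitals mark in Txnip a pair of E boxes with 5 bases between them (CACGNG each, at -85 to -69) and in Arrdc4 a single E box (CACGTG, at -193 to -188).
Txnip: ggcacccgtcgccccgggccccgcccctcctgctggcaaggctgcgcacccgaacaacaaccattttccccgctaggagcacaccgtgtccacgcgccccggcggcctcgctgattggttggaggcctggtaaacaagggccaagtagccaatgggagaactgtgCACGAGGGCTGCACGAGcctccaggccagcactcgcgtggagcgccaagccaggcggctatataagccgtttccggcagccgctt
Arrdc4: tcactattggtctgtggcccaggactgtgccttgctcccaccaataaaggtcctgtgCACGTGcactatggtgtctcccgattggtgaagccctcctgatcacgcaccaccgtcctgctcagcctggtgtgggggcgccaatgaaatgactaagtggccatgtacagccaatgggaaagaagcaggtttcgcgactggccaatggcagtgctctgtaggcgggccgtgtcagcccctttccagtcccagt
Here and below, capitals mark the motif named and no other match. Motifs were searched on both strands in the 8796 of 10883 genes (80.8%) whose promoter was in the RefSeq table. The paired E box was in 8 of them (0.091%), Txnip among them, and CACGTG in 897 (10.2%). The other 7 genes with the paired E box, which include Nfkb2, Rbbp4 and Fnip1, were all within 2-fold.

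Hmox1, which encodes the heme-degrading enzyme heme oxygenase 1, had 54.84 FPKM (CTL), 203.87 (Ti) and 96.48 (Ti+Se-Met), with a fold of 0.473 (0.445 to 0.502) between the last 2. Of the 7 genes lower by 2-fold it was the most abundant. Higd1a, a small mitochondrial protein of the hypoxia response, was at 8.0, 14.53 and 6.58 FPKM in the order CTL, Ti, Ti+Se-Met. The zinc finger gene Zfp52 was at 7.84, 17.16 and 7.8. In these 2 genes the Ti library stood above both others, which were close to each other. Just short of 2-fold were Trp53inp1, a p53 target that acts in autophagy (22.54 FPKM in Ti against 10.85 in Ti+Se-Met), Exosc6, a subunit of the RNA exosome (9.16 and 4.28), and Atf5, a transcription factor of the stress response (145.04 and 77.88). Smim4, Ccdc137 and Tmem69 completed the 10 largest differences downwards among genes with a mean of at least 5 FPKM, at -0.88, -0.88 and -0.86.

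On the other side, Ptgs2, which encodes the inducible cyclooxygenase COX-2 of prostaglandin synthesis, had 6.1 FPKM (CTL), 13 (Ti) and 51.82 (Ti+Se-Met). Its fold between the last 2 was 3.99 (3.68 to 4.31), the largest among genes above 0 in both libraries with a mean of at least 5 FPKM. Dmp1, a phosphoprotein of mineralizing matrix, was at 0.45, 3.64 and 13.85 FPKM, a fold of 3.8 (3.13 to 4.64). In both genes the order was CTL, Ti, Ti+Se-Met. The same order held for Nppb, the natriuretic peptide B precursor (0.77, 2.94 and 7.96 FPKM), for Sema7a, a membrane-anchored semaphorin (0.82, 4.05 and 9.42), for the kinase gene Pim1 (6.49, 7.85 and 18.69), and for Ifitm1, an interferon-inducible membrane protein (63.19, 79.84 and 164.33).

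In Cxcl10, Sparcl1, Tnc, Id3 and Cklf, also at least 2-fold higher, Ti was the lowest of the 3 libraries. The chemokine gene Cxcl10 was at 5.57, 1.68 and 5.75 FPKM in the order CTL, Ti, Ti+Se-Met, which rested on about 23 fragments in Ti. Sparcl1, a matricellular relative of osteonectin, was at 39.81, 9.78 and 22.88 FPKM. Tnc, the matrix glycoprotein tenascin-C, was at 10.21, 2.05 and 5.52. For these 2 matrix genes Ti+Se-Met lay between Ti and CTL. Id3, an inhibitor of basic helix-loop-helix factors and a known BMP target, was at 9.34, 7.36 and 17.47 FPKM, and Cklf, a chemokine-like factor, at 3.92, 3.34 and 8.1. The 10 largest differences upwards also held LOC118567384, at 3.54 FPKM in Ti against 7.49 in Ti+Se-Met.

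**Figure D2:**
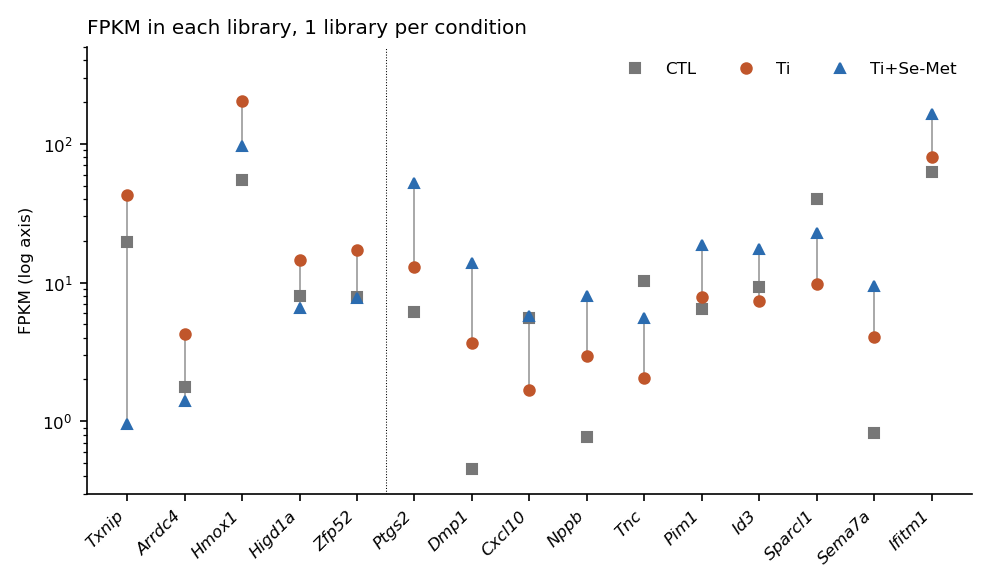
The y axis is FPKM on a log scale in the CTL (squares), Ti (circles) and Ti+Se-Met (triangles) libraries for 15 genes at least 2-fold apart between Ti and Ti+Se-Met, with the genes lower in Ti+Se-Met left of the dotted line. There is 1 library per point and so no error bar, and Txnip spans from 42.51 in Ti to 0.96 in Ti+Se-Met.

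Of the 25 genes past 2-fold, 7 were listed at 0 in 1 of the 2 libraries, and no fold is given for them. H3c15 (2.85 FPKM in Ti+Se-Met), Gm21677 (1.79), H4c14 (1.69), Zfp965 (1.12) and H2ac24 (1.06) were at 0 in Ti, while H3c14 (3.58 FPKM in Ti) and Entpd4 (1.29) were at 0 in Ti+Se-Met. Histone genes made up 6 of the 25, counting H4c2 and H2ac7, which rested on 1 and 3 fragments in Ti. Their values are uncertain, since replication-dependent histone genes are near-identical copies and reads can be split between them. Over the 22 histone genes of this kind that passed, the median difference was 0.52, and 0.38 over the 18 above 0 in both libraries. H3c15, H4c14, H2ac24, H4c2 and H2ac7 were under 1 FPKM in Ti and passed the filter only through Ti+Se-Met, and H3c14 only through Ti. Both medians are therefore set in part by the filter, and are no independent support for higher histone genes. Their summed FPKM went the other way, from 158.32 in Ti to 147.28 in Ti+Se-Met. H2ac18, the most abundant, was at 77.38 FPKM in Ti against 46.34 in Ti+Se-Met.

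Beneath these few genes, whole pathways were displaced together by small amounts. Among 35 gene lists with 838 genes, 8 had at least 80% of their members above the median of all genes and 6 had at most 25%. The lists for mitosis, cholesterol synthesis, collagens, matrix glycoproteins, the unfolded protein response and Wnt signalling were among the first. The lists for ribosome biogenesis, ATF4 targets, the proteasome, aminoacyl-tRNA synthetases, the respiratory chain and the methionine cycle were the second. Set against genes of like transcript length, the methionine cycle (37.5%) and the synthetases (30.0%) would not be among them. In no list did the median reach 2-fold.

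**Figure D3:**
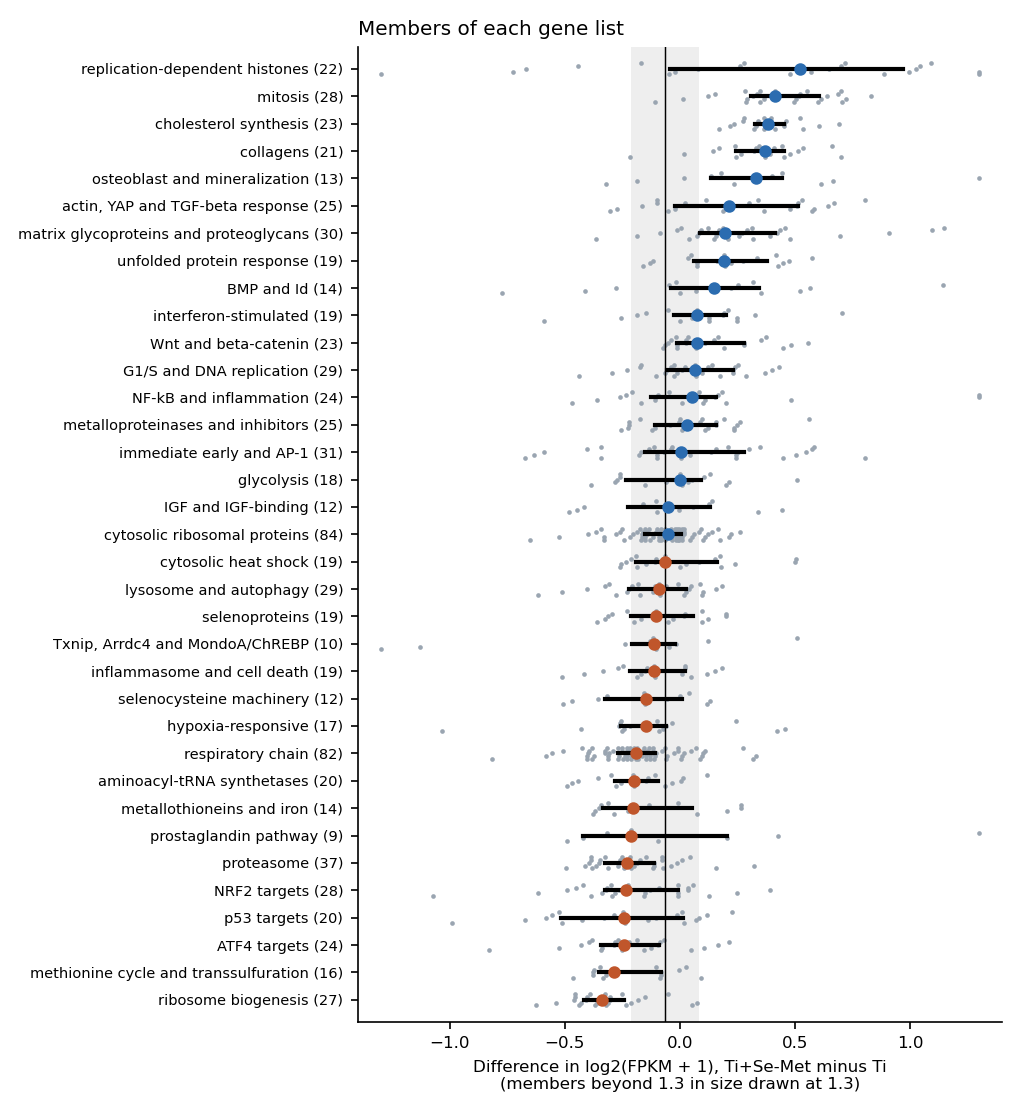
Grey points are the members of each gene list, placed by their difference in log2(FPKM + 1), Ti+Se-Met minus Ti, with the number of members in brackets. Large points are list medians, black bars the middle 50% of members, the vertical line the median of all genes and the grey band the middle 50% of all genes. The list medians run from -0.34 for ribosome biogenesis to 0.52 for replication-dependent histones, some of which passed the filter only through Ti+Se-Met.

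Genes of cholesterol synthesis were higher in the Ti+Se-Met library as a set. The difference was above 0 for 23 of 23 members, with a range from 0.17 to 0.69 and a median of 0.38, and the counting interval lay above equal levels for 23 of 23. At 5 to 4, 17 were higher and 0 lower. Idi1, which isomerizes isoprenoid units, had 40.36 FPKM (CTL), 25.88 (Ti) and 37.6 (Ti+Se-Met), a fold of 1.45 (1.34 to 1.58). The list also held Srebf2, the transcription factor that drives these genes, at 72.39, 64.7 and 86.61, and Insig1, which holds that factor in the endoplasmic reticulum, at 59.86, 70.77 and 89.22. So the regulator, its brake and the enzymes were higher together. The member furthest from equal was Tm7sf2, a sterol reductase, at 8.9 FPKM in Ti against 14.98 in Ti+Se-Met, and the nearest was Sc5d, a late desaturase, at 25.6 and 28.88.

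A CCAAT box, to which the factor NF-Y binds, was in the 250 bases before the start of 16 of the 16 cholesterol genes with a promoter in the table, against 41.7% of all genes. The promoter of Hmgcs1, the synthase at the entry of the pathway (42.9 FPKM in Ti against 55.53 in Ti+Se-Met), is shown with its 3 matches in capitals, which read ATTGG where the box is on the other strand (RefSeq, GRCm38.p6, chr13:119690101-119690350, plus strand).
Hmgcs1: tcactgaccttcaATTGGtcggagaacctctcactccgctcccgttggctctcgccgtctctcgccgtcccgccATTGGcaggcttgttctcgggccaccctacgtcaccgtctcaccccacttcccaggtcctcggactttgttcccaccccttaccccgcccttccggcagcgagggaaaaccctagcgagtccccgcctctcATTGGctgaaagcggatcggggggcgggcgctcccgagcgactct
A match is a run of letters and not a measured binding site.

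Genes of mitosis had the largest median of the lists apart from the histones, at 0.42. Of 28 members 27 were above the median of all genes, 20 were higher by at least 5 to 4 and 0 lower, and 24 had an interval above equal levels. Ccnb2, a cyclin that drives entry into mitosis, had 9.94 FPKM (CTL), 12.74 (Ti) and 23.43 (Ti+Se-Met), a fold of 1.84 (1.56 to 2.17). Ube2c, the ubiquitin-conjugating enzyme of the anaphase-promoting complex, was at 25.17, 49.17 and 81.63 FPKM. Mki67, the proliferation marker Ki-67, was at 17.33, 16.29 and 27.18, and Cdc20, an activator of the same complex, at 15.24, 30.14 and 46.2. Ti+Se-Met was the highest library for each of these 4. The kinesins and centromere proteins Kif23, Cenpe, Cenpf and Cenpa had differences from 0.61 to 0.70. Pttg1, which encodes securin, was the exception at -0.11, with 29.75 FPKM in Ti against 27.49 in Ti+Se-Met, and Ccnf was at 0.01.

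The list for G1/S and DNA replication had a smaller median, 0.07 over 29 members, of which 22 were above the median of all genes, with 3 higher by at least 5 to 4 (E2f1, Tk1 and Gins2) and 1 lower (Ccne2). The helicase subunits were on both sides of 0, from Mcm2 at 38.36 FPKM in Ti against 33.9 in Ti+Se-Met to Mcm6 at 35.67 and 43.78. Against CTL, whose library both differences share, the median of the G1/S list was 0.71 for Ti and 0.87 for Ti+Se-Met, and that of the mitosis list 0.47 and 0.95.

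Promoters of 2 mitotic genes are shown for the motifs that are known from genes of this phase, the CCAAT box and the CHR element (TTTGAA). The first was in 21 of 24 mitosis genes with a promoter (87.5%, against 41.7% of all genes) and the second in 9 of 24 (37.5%, against 12.6%). In Ccnb2 (chr9:70421555-70421804, minus strand) capitals mark 3 CCAAT boxes, and in Cdc20 (chr4:118437344-118437593, minus strand) the CHR at -18 to -13. Each also holds the other motif, without capitals, a CHR at -167 to -162 in Ccnb2 and CCAAT boxes at -53 to -49 and -8 to -4 in Cdc20. Both are from RefSeq on GRCm38.p6.
Ccnb2: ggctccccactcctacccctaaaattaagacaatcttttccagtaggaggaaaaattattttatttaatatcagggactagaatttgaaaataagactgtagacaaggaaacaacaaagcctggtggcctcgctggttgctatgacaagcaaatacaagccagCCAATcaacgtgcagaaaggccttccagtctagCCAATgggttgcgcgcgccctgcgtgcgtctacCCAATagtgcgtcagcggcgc
Cdc20: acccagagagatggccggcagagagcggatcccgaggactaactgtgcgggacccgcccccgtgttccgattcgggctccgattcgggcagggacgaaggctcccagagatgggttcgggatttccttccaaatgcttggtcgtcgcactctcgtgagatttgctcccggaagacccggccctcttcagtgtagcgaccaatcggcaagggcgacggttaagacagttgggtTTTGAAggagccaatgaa

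Genes of the extracellular matrix were higher in Ti+Se-Met than in Ti, and the collagen list lay below CTL in both, with medians of -0.97 for Ti and -0.52 for Ti+Se-Met against the shared CTL library. Of 21 collagen genes that passed, 20 were above the median of all genes, 14 were higher by at least 5 to 4 and 0 lower, with a median difference of 0.37. Col1a1, the main chain of bone collagen, had 1333.19 FPKM (CTL), 354.2 (Ti) and 481.63 (Ti+Se-Met), a fold of 1.36 (1.34 to 1.38). Its partner Col1a2 was at 2688.49, 998.91 and 1256.6. The Ti+Se-Met library was therefore above Ti but far below CTL for both. Col12a1, a fibril-associated collagen, had 211.52, 97.73 and 155.17 FPKM, and the basement membrane chain Col18a1 had 17.42, 12.73 and 21.31, which put it above CTL. The lowest member was Col20a1 at -0.22, a gene near 1 FPKM. Summed over the list, FPKM was 7174.47 in CTL, 2933.85 in Ti and, above it, 3765.74 in Ti+Se-Met.

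Among 30 matrix glycoproteins and proteoglycans, 27 were above the median of all genes, with a median of 0.20, 9 higher by at least 5 to 4 and 1 lower. Besides Sparcl1 and Tnc, the higher ones were Tnn (tenascin-W, 2.23 FPKM in Ti against 5.06 in Ti+Se-Met), Thbs1 (thrombospondin 1, 34.11 and 55.79), Bgn (biglycan, 600.78 and 838.12), Nid2, Fn1 (fibronectin, 1296.64 and 1755.64), Prelp and Ltbp1. The lower one was Ogn, which encodes osteoglycin, at 643.89 FPKM (CTL), 130.4 (Ti) and 101.14 (Ti+Se-Met). Omd and Aspn, small leucine-rich proteoglycans like Ogn, had differences of -0.19 and -0.09, and Postn (periostin), Dcn (decorin) and Lum (lumican) had 0.09, 0.08 and 0.12. With Ogn, all 6 were lower than CTL in both libraries. Postn had 2904.07 FPKM (CTL), 419.52 (Ti) and 446.61 (Ti+Se-Met).

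**Figure D4:**
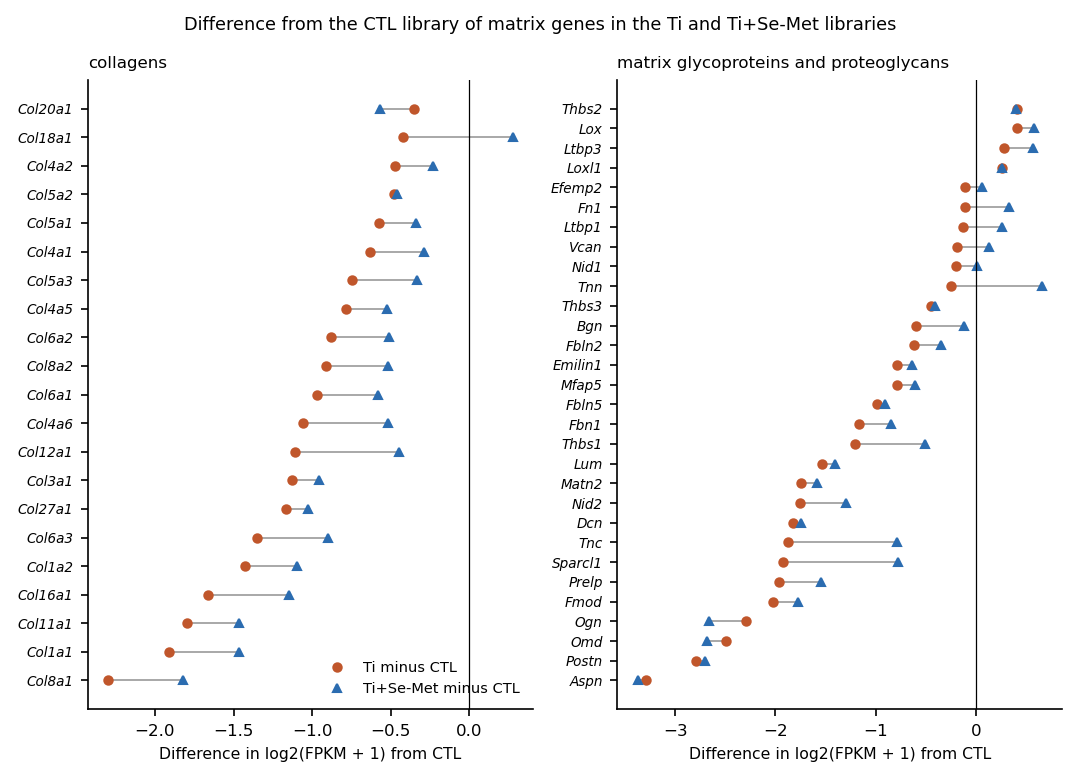
The x axis is the difference in log2(FPKM + 1) from CTL for the Ti (circles) and Ti+Se-Met (triangles) libraries, for collagens (left) and matrix glycoproteins and proteoglycans (right). Both differences use the same CTL library. The triangle lies right of the circle for 20 of 21 collagens and 26 of 30 glycoproteins and proteoglycans, and the line at 0 marks the CTL level.

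The KEGG term ECM-receptor interaction, as the table assigns it, held 41 genes, of which 40 were above the median of all genes and 22 were higher by at least 5 to 4. It shares 9 genes with the collagen list, and its other members include the integrin chains Itgb3 (6.92 FPKM in Ti against 10.09 in Ti+Se-Met), Itga6 (3.73 and 5.69), Itga11 (28.78 and 39.35) and Itgb1 (117.93 and 154.59), which are the receptors for this matrix. The laminin chains Lama4 and Lamc1 were at 24.82 and 37.07 FPKM in Ti and at 36.09 and 49.15 in Ti+Se-Met. Itgb7, an integrin of white blood cells, was the member on the other side, at 7.86 and 7.15.

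The osteoblast and mineralization list, which shares Col1a1 and Col1a2 with the collagens, had a median of 0.33 over 13 genes, with 7 higher by at least 5 to 4 and 0 lower. Runx2, the transcription factor that commits cells to the osteoblast lineage, had 26.77 FPKM (CTL), 17.14 (Ti) and 22.97 (Ti+Se-Met), a fold of 1.34 with an interval above equal levels. Spp1, which encodes osteopontin, was at 1261.19, 3705.78 and 4659.49, so that Ti+Se-Met was the furthest from CTL. Ank, a pyrophosphate transporter that restrains mineralization, was at 42.24, 45.14 and 69.52. Bglap2, an osteocalcin gene, had 1.51 FPKM in Ti against 2.98 in Ti+Se-Met with an interval that included equal levels (0.603 to 5.75). Phospho1, a phosphatase of matrix vesicles, was lower at 6.52 and 5.02. Alpl was at 1.51 FPKM in CTL and 0.2 in both Ti and Ti+Se-Met.

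Contractile and cytoskeletal genes were also higher. The list of actin, YAP and TGF-beta response genes had a median of 0.22 over 25 members, with 20 above the median of all genes, 11 higher by at least 5 to 4 and 0 lower. Less the median of genes of like length, 76.0% of its members were above 0. Acta2, smooth muscle actin, had 905.68 FPKM (CTL), 407.87 (Ti) and 649.96 (Ti+Se-Met), a fold of 1.59 (1.55 to 1.63). Ccn1, a matricellular target of YAP, was at 237.78, 98.84 and 173.27. In these 2 genes Ti+Se-Met lay between Ti and CTL. Tgfbi, a matrix protein induced by TGF-beta, was at 10.24, 15.24 and 24.35, with Ti between CTL and Ti+Se-Met. Vcl (vinculin), Cnn2 (calponin 2) and Myl9 (a myosin light chain) had differences from 0.51 to 0.53. The TGF-beta receptors Tgfbr1 and Tgfbr2 were at -0.16 and -0.05, and Ajuba and Amotl2, both of the Hippo pathway, at -0.31 and -0.28.

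For the Wnt pathway, 21 of 23 genes were above the median of all genes but by little, with a median of 0.07, 5 higher by at least 5 to 4 and 0 lower. Ctnnb1, which encodes beta-catenin, had 252.77 FPKM (CTL), 195.86 (Ti) and 199.48 (Ti+Se-Met), and its fold of 1.02 had an interval from 0.986 to 1.05. Axin2, a feedback target of the pathway, was at 8.7, 2.98 and 2.94. On the deposited scaling, neither gene differed beyond counting error. With the median of ratios the median of all genes moved from -0.06 to -0.004, and the intervals were not recomputed for it. The reading of an interval as close to equal levels as that of Ctnnb1 therefore depends on the scaling. The 5 higher genes were the ligand Wnt10b (5.76 FPKM in Ti against 8.45 in Ti+Se-Met), the transcription factors Tcf7l2 (11.82 and 15.35) and Lef1 (0.81 and 1.47), the secreted Sfrp2 (11.2 and 14.82) and the receptor Lgr6 (0.96 and 1.88). Lef1 and Lgr6 were under 1 FPKM in Ti and passed the filter only through Ti+Se-Met, so their place among the higher genes is no independent support. Lrp5, a co-receptor, was at 26.3 and 32.14.

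The Id genes, known targets of BMP signalling, did not go one way. Id3 was higher, as given above, and Id2 was at 7.62, 3.03 and 4.97 FPKM in the order CTL, Ti, Ti+Se-Met. Id1 was at 2.6, 6.09 and 3.15, a fold of 0.517 (0.322 to 0.836). Id4, the most abundant, was at 179.97, 107.58 and 103.93. Over the 14 genes of the BMP list the median was 0.15, with 4 higher by at least 5 to 4 and 2 lower. The ligand Bmp4 (5.33 FPKM in Ti against 6.89 in Ti+Se-Met) was above and the signal transducer Smad9 (1.66 and 1.0) below the level in Ti.

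The 2 branches of the stress response to unfolded protein and to amino acid shortage went apart. Chaperones and folding enzymes of the endoplasmic reticulum were higher in Ti+Se-Met, with a median of 0.19 over 19 genes of the unfolded protein response. Of these, 16 were above 0 and 16 above the median of all genes, with 6 higher by at least 5 to 4 and 0 lower. Hspa5, which encodes the chaperone BiP, had 302.17 FPKM (CTL), 221.84 (Ti) and 280.31 (Ti+Se-Met), a fold of 1.26 (1.22 to 1.3). Pdia4, a disulfide isomerase, was at 83.66, 55.31 and 82.86, Pdia6 at 180.3, 121.56 and 169.41, and Calr, calreticulin, at 429.33, 273.35 and 373.05. For these 4 genes Ti was the lowest library and Ti+Se-Met close to CTL or between the others. Xbp1 and Dnajb9, markers of the IRE1 branch, had differences of 0.05 and -0.16, with intervals that included equal levels.

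Targets of ATF4, the factor that turns on amino acid synthesis and transport, were lower. Of 24 genes 20 were below 0, 4 were above the median of all genes, 0 were higher by at least 5 to 4 and 7 lower, and the median was -0.24. Trib3, a pseudokinase induced by stress, had 4.73 FPKM (CTL), 31.28 (Ti) and 17.15 (Ti+Se-Met), a fold of 0.548 (0.483 to 0.623). Asns, asparagine synthetase, was at 26.9, 119.3 and 91.41, and the serine synthesis genes Psph and Shmt2 at 15.6 and 38.51 in CTL, 40.5 and 126.41 in Ti and 30.52 and 99.56 in Ti+Se-Met. All 4 were above CTL in Ti+Se-Met. Sesn2 and Ddit4, which restrain mTOR, were at 24.0 and 96.87 FPKM in Ti and at 16.37 and 71.55 in Ti+Se-Met, close to or below their CTL levels of 15.48 and 109.72. Atf4 itself was at 219.82 and 207.0, a difference of -0.09. The amino acid transporters Slc7a5 and Slc3a2 were on the other side, at 0.17 and 0.05.

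The ER stress element (CCAAT and CCACG with 9 bases between them, so that each holds a CCAAT box) was found before 8 of 17 genes of the unfolded protein response with a promoter (47.1%), against 0.148% of all genes. It was before 0 of 22 ATF4 targets, of which 5 (22.7%) held the C/EBP-ATF site TTGCATCA that 0.591% of all genes hold. Hspa5 is shown with the element in capitals at -65 to -47 (RefSeq, GRCm38.p6, chr2:34771840-34772089, plus strand).
Hspa5: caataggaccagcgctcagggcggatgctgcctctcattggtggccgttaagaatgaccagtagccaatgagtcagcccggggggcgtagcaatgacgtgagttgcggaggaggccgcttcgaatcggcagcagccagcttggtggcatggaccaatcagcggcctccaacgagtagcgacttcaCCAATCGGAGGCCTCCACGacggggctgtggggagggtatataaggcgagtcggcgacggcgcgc

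**Figure D5:**
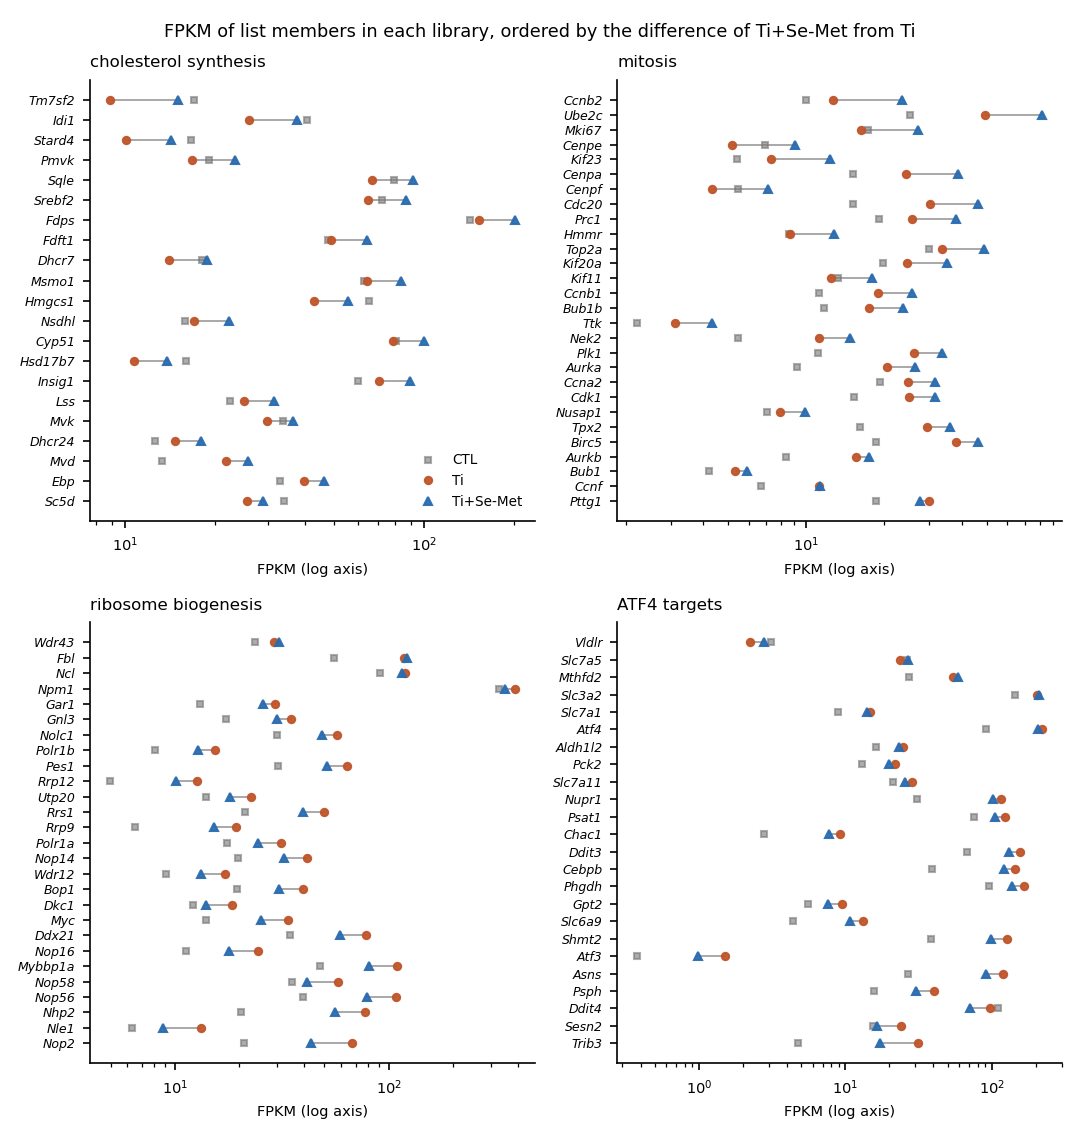
FPKM on a log axis in CTL (squares), Ti (circles) and Ti+Se-Met (triangles) for the members of 4 lists, ordered by the difference between Ti+Se-Met and Ti. Triangles lie right of circles for 21 of 21 cholesterol genes drawn and 27 of 28 mitosis genes, and left of them for 25 of 27 ribosome biogenesis genes and 20 of 24 ATF4 targets.

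Ribosome biogenesis had the lowest median of the lists, at -0.34. Of 27 genes 25 were below 0, 15 were lower by at least 5 to 4 and 0 higher, and 24 had an interval below equal levels. Above the median of all genes were 3. Nop2, an rRNA methyltransferase, had 21.08 FPKM (CTL), 67.31 (Ti) and 43.3 (Ti+Se-Met), a fold of 0.643 (0.599 to 0.691). Nop56 and Nop58, core proteins of the methylation complex, were at 108.35 and 57.56 FPKM in Ti and at 78.65 and 41.65 in Ti+Se-Met. Myc, the factor known to drive these genes, was at 14.01, 33.72 and 25.22. In these 4 genes Ti+Se-Met lay between Ti and CTL, with a list median of 1.04 in Ti against 0.68 in Ti+Se-Met, both against CTL. Fbl (fibrillarin) and Wdr43 were the 2 members above 0, at 0.05 and 0.07. The proteins of the finished cytosolic ribosome and their close relatives lay near the median of all genes, with a median of -0.05 over 84 genes and 43 above it. On the deposited scaling the counting interval lay below equal levels for 43 of 83 and above for 12. Their transcripts are short, with a median length of 775 bases. Less the median of genes of like length, 68.7% were above 0, so their place depends on the reference.

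Other parts of protein synthesis and turnover were lower too. The aminoacyl-tRNA synthetases, which charge tRNAs, had a median of -0.20, with 17 of 20 below 0 and 4 above the median of all genes. They ran from Rars (84.86 FPKM in Ti against 60.18 in Ti+Se-Met) to Farsb (33.51 and 36.42). Among 37 proteasome genes 33 were below 0 and 6 above the median of all genes, with a median of -0.23 and 10 lower by at least 5 to 4. Psmd13, a subunit of the regulatory particle, had 43.93 FPKM (CTL), 97.02 (Ti) and 68.52 (Ti+Se-Met). Psmb9, a subunit of the immunoproteasome, was the 1 proteasome gene higher by at least 5 to 4, at 10.46 and 13.33. Nuclear-encoded subunits of the respiratory chain had a median of -0.19, with 70 of 82 below 0 and 17 above the median of all genes. By at least 5 to 4, 14 were lower and 1 higher. Uqcr10, a small subunit of complex III, was the lowest at 58.37 and 32.69 FPKM. The proteasome and respiratory chain lists hold short transcripts, with median lengths of 1512 and 760 bases against 2782 for the synthetases, and short genes were lower in general, from a median of -0.12 in the shortest of 10 equal classes of transcript length to 0.0 in the longest. Less the median of genes of like length, the list medians were -0.13 for the synthetases, -0.11 for the proteasome, -0.08 for the respiratory chain and -0.28 for ribosome biogenesis.

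Antioxidant genes under the factor NRF2 were lower on balance, with a median of -0.23 and 22 of 28 below 0. Of the 28, 9 were above the median of all genes, which 50% of genes exceed. After Hmox1, the lowest were Sqstm1, the autophagy receptor p62 (299.37 FPKM (CTL), 1023.87 (Ti) and 666.36 (Ti+Se-Met)), Slc48a1, a heme transporter (82.17, 171.59 and 121.99), and Gclc, the catalytic subunit of glutathione synthesis (29.26, 46.13 and 33.5). Their Ti+Se-Met levels lay between Ti and CTL. The partner subunit Gclm was at 37.33 and 37.1 FPKM in Ti and Ti+Se-Met, and Nqo1 at 97.55 and 91.56, which did not differ beyond counting error. Tkt, of the pentose phosphate pathway, was higher at 65.57 and 86.29. Fth1, the ferritin heavy chain, was at 10930.0 FPKM in Ti against 9343.11 in Ti+Se-Met, while the light chain Ftl1 was at 5414.89 and 5385.91. Of other iron genes, Tfrc, the transferrin receptor, and Ncoa4, which brings ferritin to the lysosome, had differences of -0.37 and -0.38. The metallothioneins Mt1 and Mt2, which bind zinc and copper, were at 0.21 and 0.27.

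Targets of p53 had a median of -0.24 over 20 genes, or -0.15 less the median of genes of like length. Above the median of all genes were 7 of the 20. At 5 to 4, 8 were lower, against 12.3% of all genes, and 0 higher. Next to Trp53inp1 these were Btg2, an antiproliferative gene (7.53 FPKM in Ti against 4.35 in Ti+Se-Met), Aen, a nuclease of apoptosis (27.97 and 18.32), Ei24 (44.85 and 30.21), Bbc3, which encodes PUMA (9.23 and 6.17), Phlda3 (292.65 and 217.86), Ccng1 (150.3 and 119.21) and Sesn2. Cdkn1a, the p21 inhibitor of cell cycle kinases, had 153.56 FPKM (CTL), 252.53 (Ti) and 214.06 (Ti+Se-Met). Mdm2 and Bax, which are also p53 targets, were within counting error of equal, at -0.01 and 0.01. The list was thus not displaced throughout.

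The selenoprotein list lay near the median of all genes. Of 19 selenoprotein genes 9 were above the median of all genes, 2 were lower by at least 5 to 4 and 0 higher, and the median was -0.10. The glutathione peroxidase Gpx1 had 156.67 FPKM (CTL), 281.61 (Ti) and 261.4 (Ti+Se-Met), a fold of 0.928 (0.882 to 0.977). Gpx4, which protects membrane lipids, was at 337.85, 654.14 and 569.18, and the thioredoxin reductase Txnrd1 at 65.2, 166.01 and 135.24. Selenow, an abundant small selenoprotein, was slightly higher at 305.31 FPKM in Ti against 332.56 in Ti+Se-Met. The 2 lower genes were Selenop, the selenium transport protein (31.57 in CTL, 10.68 in Ti against 8.31 in Ti+Se-Met), and Txnrd3 (3.08, 5.22 and 3.84). Of 12 genes of the machinery that makes and inserts selenocysteine, 3 were lower by at least 5 to 4, against 12.3% of all genes, namely Secisbp2, which reads the insertion signal (4.92 and 3.16 FPKM in Ti and Ti+Se-Met), the elongation factor Eefsec (14.38 and 10.11) and Sars, the seryl-tRNA synthetase (156.86 and 122.42). Scly, the lyase that frees selenium from selenocysteine, was at 5.8 and 5.11 with an interval that included equal levels.

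The methionine cycle, into which Se-Met enters as methionine does, had a median of -0.29 over 16 genes. Of these, 14 were below 0 and 3 above the median of all genes, with 6 lower by at least 5 to 4 and 0 higher. Mat2a, which makes S-adenosylmethionine, had 62.02 FPKM (CTL), 59.16 (Ti) and 42.62 (Ti+Se-Met), a fold of 0.72 (0.674 to 0.77). Mtr, methionine synthase, was at 10.25, 6.38 and 4.7 and its reductase Mtrr at 3.16, 5.1 and 3.69. For Mat2a and Mtr, among others, Ti+Se-Met was the lowest of the 3 libraries. Amd1, of polyamine synthesis, was at 50.15 and 38.41 FPKM in Ti and Ti+Se-Met, and Mat2b, the regulatory partner of Mat2a, at 30.69 and 30.57. Selenocompound metabolism, a KEGG term of 16 genes that shares 1 gene with this list and 4 with the selenoproteins, had the lowest median of the 302 KEGG terms with at least 10 genes, at -0.28. Its lowest members were Kyat3, which cleaves cysteine conjugates (4.35 and 2.71), and Mtr. It also holds Pstk, a kinase on the way to selenocysteinyl-tRNA (14.65 and 11.56), and Sephs2, which makes selenophosphate (15 and 11.88). Scly, given above, and 1 gene of the aminoacyl-tRNA synthetase list belong to it too, so the term is not separate from the genes described above. Papss1 and Papss2, which activate sulfate and selenate, were above 0 at 0.21 and 0.27.

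The prostaglandin, NF-kB and cell death lists held genes on both sides. In the prostaglandin pathway Ptgs2 and Ptgs1 (26.06 FPKM in Ti against 35.32 in Ti+Se-Met) were higher, while the synthase Ptges2 (21.53 and 15.81), the receptors Ptger1 (10.13 and 6.91) and Ptgfr (6.58 and 5.09) and the exporter Abcc4 (9.13 and 6.57) had intervals below equal levels, and the median over 9 genes was -0.21. Over 24 genes of NF-kB and inflammation the median was 0.05, with 3 higher by at least 5 to 4 (Ptgs2, Cxcl10 and Il6) and 2 lower (Nfkbie and Saa3). Il6 and Saa3 were at or under 1.35 FPKM and their intervals included equal levels. The chemokine gene Ccl2 had 22.1 FPKM (CTL), 37.47 (Ti) and 34.67 (Ti+Se-Met), and Nfkbia, the inhibitor of NF-kB, at 21.84, 19.32 and 20.5, both with intervals that included equal levels. Among 19 inflammasome and cell death genes 3 were lower by at least 5 to 4 and 0 higher, against 12.3% and 5.46% of all genes. The lower ones were Bbc3, Bad (47.98 and 37.89 FPKM) and the inflammatory caspase Casp4 (8.47 and 6.1), with Gsdmd at 6.9 and 6.31. Above the median of all genes were 8 of the 19. An interval below equal levels was found for 6 of them, against 29.9% of all genes with a known length. These counts are near the shares over all genes. Of 19 interferon-stimulated genes 15 were above the median of all genes, 9 had an interval above equal levels and 4 below, and the median was 0.08, with Ifit3 higher (36.47 and 60.02) and Ifi35 lower (61.4 and 40.38).

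Other lists held single genes apart from the rest. Immediate early genes had a median of 0.01, with 7 of 31 higher by at least 5 to 4 and 6 lower. The higher ones included Zfp36, which speeds decay of cytokine mRNA (10.17 FPKM in Ti against 15.73 in Ti+Se-Met), Klf4 (39.26 and 56.12) and the feedback inhibitors Spry2 (6.1 and 9.39) and Dusp5 (10.22 and 14.29), and the lower ones Nr4a2 (4.2 and 2.35) and Klf2 (3.24 and 1.81). The AP-1 genes Fosl1 (88.45 and 84.3), Junb and Jun did not differ beyond counting error. Of 25 metalloproteinases and inhibitors only Adam8 was past 5 to 4, at 7.8 and 11.99, and Mmp13 was at 16.41 and 17.79. In the IGF list the receptor Igf1r (12.16 and 15.64) and Igfbp7 (61.24 and 83.58) were higher and the adaptors Irs1 (18.83 and 13.21) and Irs2 (6.15 and 4.24) lower. Hypoxia-responsive genes had a median of -0.15 over 17 genes, among them Vegfa at 94.37 and 79.08 FPKM, and Car9 was higher at 5.45 and 7.85. Lysosome and autophagy genes had a median of -0.09 and cytosolic heat shock genes -0.07, with Hspa1b (20.94 and 30.01) and Hspa4l (16.8 and 24.26) higher. The median of the glycolysis list was 0.0, with Tpi1 (728.71 and 557.07) the 1 gene lower and Slc2a1 the 1 gene higher by at least 5 to 4, and the sign of that median, of the IGF list and of the ribosomal proteins turned with the scaling.

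Over the 302 KEGG terms of the table, 130 had a median above 0 on the deposited scaling. The median of all genes was -0.06 on that scaling, so this count depends on the scaling and not on the terms alone. The 3 highest were Steroid biosynthesis (15 genes, 0.34), ECM-receptor interaction (0.33) and the term for arrhythmogenic right ventricular cardiomyopathy (32 genes, 0.27), which holds integrin, actin and junction genes beside those of calcium channels, sarcoglycans and the nuclear envelope. The 3 lowest were Selenocompound metabolism, Ribosome biogenesis in eukaryotes (71 genes, -0.22) and Proteasome (43 genes, -0.21). Steroid biosynthesis shares 12 of its 15 genes with the cholesterol list of 23, so the 2 overlap.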

How the data were processed

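RNA was sequenced from MC3T3-E1 cells in 3 conditions, with 1 library per condition. The deposited table holds FPKM values, made by the authors, for 15287 genes with KEGG and GO terms. HISAT2, SAMtools, StringTie and the build mm9 are named in the submitters' processing notes, without roles or versions, and how FPKM was scaled between libraries is not given in the sources used here. Every value column matched a sample, so 0 columns were left out.

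Genes that reached 1 FPKM in Ti or Ti+Se-Met were kept. The measure was the difference in log2(FPKM + 1), Ti+Se-Met minus Ti, read at 2-fold and at a ratio of 5 to 4. A fold is the ratio of the FPKM values themselves. On the log2 scale with a pseudocount of 1, low genes have smaller differences than their fold. Depth was estimated from the spacing of low FPKM values in 452 short genes, with 175 bases subtracted from each length, and gave exact conditional binomial intervals at 95% (scipy 1.17.1, Python 3.11.15). These depths are estimates. The intervals cover counting error only and take the deposited scaling as given, and reads without molecular identifiers are not independent molecules. The scripts were tested on simulated data. Promoters came from RefSeq on GRCm38.p6.

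The genes, the 35 lists and the comparison were chosen with earlier results of these data known, and Pim1 was taken out of the prostaglandin list after its values were seen. The text names the genes past 2-fold, the 10 largest differences in each direction at a mean of at least 5 FPKM, and list members. Integrin, laminin and other members of KEGG terms were named after their values were seen. Alternatives were other pseudocounts, filters, thresholds and scalings, and a centring on transcript length that was added after seeing the data. Some genes of the lists enter the counts and are not reported by name here.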

Additional observations from a re-analysis of the deposited data

How the results depend on the processing

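No paired analysis was possible because the groups compared hold 1 library each, and for the same reason no library could be left out. The 25 genes at least 2-fold apart (18 higher and 7 lower) became 68 where the pseudocount was 0.1, of which 33 were higher and 35 lower, and 4 where it was 5. They were 13 at a mean of at least 5 FPKM, 237 at a threshold of 1.5-fold, of which 94 were higher and 143 lower, and 2 at a threshold of 4-fold. The 1936 genes at 5 to 4 became 829 at the higher of these pseudocounts, of which 280 were higher and 549 lower. Higher genes were 30.7% of those past 5 to 4, but 39.7% with equal FPKM sums, 50.5% with the median of ratios and 51.0% with the upper quartile. The share of collagens above the median of all genes was 100.0% at a mean of at least 5 FPKM. Less the median of genes of like length, which was added after seeing the data, 68.7% of cytosolic ribosomal proteins and 100.0% of mitosis genes were above 0. The same centring moved the share for the methionine cycle from 18.8% to 37.5%, for the aminoacyl-tRNA synthetases from 20% to 30.0%, for the selenocysteine machinery from 41.7% to 25% and for the selenoproteins from 47.4% to 57.9%, and without a filter the last was 33.3%. Of 280 such shares under an alternative, 268 were within 10 percentage points of the value given. Depth limits the genes near 1 FPKM, where 1 fragment at 1 kb is worth 0.066 FPKM in Ti against 0.0935 in Ti+Se-Met.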

Other observations

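Several gene groups beside the lists were displaced as well. They were chosen after their values were seen, so their counts are a description. Some share genes with the lists and are not separate from them. Among the shared genes are Kif23 of the mitosis list, Acta2 of the actin list and Zfp36 of the immediate early list. Over all genes, 5.46% were higher by at least 5 to 4 and 12.3% lower. Proteins of the mitochondrial ribosome, which translates the transcripts of mitochondrial DNA, had a median difference in log2(FPKM + 1) of -0.27 over 78 genes, with 12 above the median of all genes, 30 lower by at least 5 to 4 and 0 higher. Mrpl44 had 13.94 FPKM (CTL), 20.88 (Ti) and 13.25 (Ti+Se-Met), and Mrps16 at 29.39, 44.4 and 30.58. In both, Ti+Se-Met was close to CTL. The median transcript length of the group was 1224 bases, in a range where genes were lower in general. The RNA exosome, which trims and degrades RNA in the nucleus and cytosol, had 0 of 10 genes above the median of all genes and a median of -0.32. Beside Exosc6, Exosc4 had 14.63 FPKM (CTL), 23.91 (Ti) and 15.32 (Ti+Se-Met). Numbered zinc finger genes, most of which encode DNA-binding proteins, had a median of -0.19 over 283 genes, with 71 lower by at least 5 to 4 and 4 higher. Zfp53 had 9.85 FPKM (CTL), 10.21 (Ti) and 5.82 (Ti+Se-Met).

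Actins and alpha-actinins, the filaments and crosslinkers of the cytoskeleton, were higher by at least 5 to 4 in 6 of 6 genes, with a median of 0.54. Actb had 860.95 FPKM (CTL), 725.77 (Ti) and 1121.05 (Ti+Se-Met), and Actg1 at 1661.34, 1373.54 and 2261.33. Both were highest in Ti+Se-Met. Actb is often used as a reference gene for quantitative PCR, and its difference here was 0.63. Of 27 kinesins, motors that move along microtubules, 25 were above the median of all genes, with Kif23, a mitotic kinesin given above, the highest. Kif5a, a kinesin of neurons, was below it, at 3.58 FPKM in Ti against 2.93 in Ti+Se-Met. The median transcript length of the kinesins was 5494 bases. Genes in that class of length had a median of -0.01, against -0.06 for all genes. Among 15 clock genes 4 were higher by at least 5 to 4, against 5.46% of all genes. Of the 15, 2 were lower, which is near the 12.3% of all genes. The output factor Dbp had 10.55 FPKM (CTL), 8.0 (Ti) and 15.25 (Ti+Se-Met), the repressor Nr1d1 at 28.55, 41.73 and 68.63, and Nfil3, a repressor of the genes that Dbp activates, at 8.84, 14.82 and 10.42. Among 1371 GO terms with at least 20 genes, the lowest medians were those of the large-subunit preribosome (-0.31), snoRNA binding (-0.29) and amino acid synthesis (-0.29), and the highest those of cholesterol synthesis (0.33), sterol synthesis (0.30) and collagen trimers (0.29).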
